A study of Mus musculus with 18 samples.

Results

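The 8 genes described here carry macrophage arginine in and through its competing uses: Nos2, Arg1, Arg2, Ass1, Asl, Slc7a1, Slc7a2 and Odc1. They were taken as a fixed list from the 21938 protein-coding genes of GENCODE vM21 on the nuclear chromosomes. Their H3K27me3 and H3K27ac peaks were read from 6 deposited peak lists, wherever a peak touched the gene body, the 5 kb before it or the 1 kb after it, together called the gene window. Bone marrow-derived macrophages (BMDM) of WT, mdx and mdxTLR4-/- mice had been profiled by ChIP-seq for both marks, in an unstimulated state. The 18 labelled samples comprised 2 H3K27me3 ChIP samples and 2 inputs from each genotype. For H3K27ac there were 2 WT, 2 mdx and 1 mdxTLR4-/- ChIP samples, with a single input that carries the WT strain label.

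WT samples were labelled with the strain C57BL6, mdx samples with Dmdmdx-4Cv, and the mdxTLR4-/- samples, titled mTLR4 or mdxTLR4, with Bl6/Bl10. The mdx mice carry a mutation in the dystrophin gene in every cell, and the mdxTLR4-/- mice lack TLR4 as well, so the latter group differs from WT in both alleles and no ChIP sample lacked TLR4 alone. All cells had been grown for 7 days in medium with L929 supernatant, a source of macrophage colony-stimulating factor, and were labelled as untreated. The labelled age of the H3K27me3 ChIP samples was 12 to 13 weeks for WT, 14 to 15 weeks for mdx and 16 to 17 weeks for mdxTLR4-/-. For H3K27ac it was 19 to 20 weeks, 21 to 22 weeks and 23 weeks in the same order. Labelled age rose by 1 week from each sample to the next across all 18, from 6 to 23 weeks with the inputs at 6 to 11 and 18 weeks, so whether these are the ages of the mice is not known here. Strain label, and within each mark labelled age, changed together with genotype, and their parts in any difference between lists cannot be told apart.

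Arginine is the common substrate of inducible nitric oxide synthase, which makes nitric oxide and citrulline, and of the arginases, which make ornithine and urea. Macrophages driven by bacterial products and interferon are known for the former use and macrophages driven by interleukin 4 for the latter, while argininosuccinate synthase and lyase turn citrulline back into arginine and ornithine decarboxylase opens the way to polyamines. Methylation of lysine 27 of histone H3 is laid down by Polycomb repressive complex 2 over silent genes, and acetylation of the same lysine marks active promoters and enhancers.

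Each mark had 1 list per genotype, that of H3K27ac in mdxTLR4-/- BMDM from 1 sample and the others from merged replicates, so no value below has a spread between mice and no p-value was computed. The H3K27me3 lists of WT, mdx and mdxTLR4-/- BMDM held 28143, 41780 and 36488 peaks, and the median peak had 75 to 123 reads. H3K27ac lists were far shallower, with 15665, 12076 and 12493 peaks in the same order, a median of 8 to 10 reads and a minimum of 5. The reads in H3K27ac peaks summed to 274020 in WT BMDM, 191629 in mdx and 168487 in mdxTLR4-/- BMDM, and library depth is unknown here. As a check of the labelled cell type, 9 of 9 macrophage markers had an H3K27ac peak within 1 kb of the gene start in WT and mdxTLR4-/- BMDM and 8 of 9 in mdx BMDM, Csf1r being the exception, and 0 of 9 had an H3K27me3 peak. None of 16 markers of neutrophils, T cells, B cells, fibroblasts and skeletal muscle had H3K27ac within that distance in any list.

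Nos2 and Arg1 differed in kind of mark. Sequence is shown first for the stretches where the study placed its ChIP-qPCR primers in their promoters, because these lie apart from most of the peaks. Each primer had 1 exact match in the mm10 assembly. In the sequences below, written 5′ to 3′ on the strand of the gene, the capitals are the primers as given in the study's primer table, and the bases between come from RefSeq GRCm38.p6.
Nos2, chr11:78920307-78920432, plus strand: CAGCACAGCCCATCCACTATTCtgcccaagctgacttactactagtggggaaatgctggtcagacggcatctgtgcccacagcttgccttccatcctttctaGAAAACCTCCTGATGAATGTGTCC
Arg1, chr10:24928325-24928404, minus strand: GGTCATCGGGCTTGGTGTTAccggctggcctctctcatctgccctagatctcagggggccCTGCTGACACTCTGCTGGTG
The Nos2 amplicon of 126 bp lay 355 to 480 bp upstream of the gene start. It was outside every peak of all 6 lists, and 1769 bp from the nearest H3K27me3 peak in all 3 genotypes. The Arg1 amplicon of 80 bp lay 841 to 920 bp upstream of the gene start. It was inside the WT H3K27ac peak and in no peak of the other lists, and the nearest H3K27me3 peak was 172525 bp away in WT, 8597 bp in mdx and 67125 bp in mdxTLR4-/- BMDM.

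A broad H3K27me3 domain filled the body of Nos2, the gene of inducible nitric oxide synthase (ENSMUSG00000020826.8, chr11:78920787-78960254, plus strand), in all 3 genotypes. In WT BMDM it was a single peak at chr11:78922201-78959000 with 1717 reads (46.7 per kb). In mdx BMDM a peak at chr11:78922201-78955600 with 1779 reads (53.3 per kb) was followed, 1 kb further, by a short one at chr11:78956601-78958200 with 50 reads (31.2 per kb). In mdxTLR4-/- BMDM a single peak at chr11:78922201-78959600 held 1586 reads (42.4 per kb). The 3 domains began at the same 200 bp window, 1414 bp past the gene start, and ended before the end of the gene, so that exons 2 to 26 of 27 were touched in every list while exons 1 and 27, the gene start and the 5 kb upstream were not. The other annotated start of Nos2, 4416 bp downstream, was inside the domain in all 3 lists.

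The domain covered 80.9% of the Nos2 window in WT BMDM, 77.0% in mdx and 82.3% in mdxTLR4-/- BMDM, more than in 90.2%, 90.0% and 92.2% of protein-coding genes. By length the main peak exceeded 97.1% of the peaks of the WT list, 98.0% of the mdx list and 98.5% of the mdxTLR4-/- list. Its read density exceeded that of 95.4%, 95.3% and 92.7% of peaks in the same order. Its CpG content of 13.2 to 13.5 per kb was above the median of the lists, 10.9 to 11.2 per kb, and above that of 66.6% to 70.2% of peaks. No H3K27ac peak touched the Nos2 window in any list. The nearest one to the gene start lay 33.0 kb upstream in WT and 32.6 kb upstream in mdx BMDM, and 103 kb downstream in mdxTLR4-/- BMDM. These peaks held only 11, 12 and 6 reads in the same order.

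Arg1, the gene of the cytosolic arginase (ENSMUSG00000019987.9, chr10:24915221-24927484, minus strand), had the reverse arrangement, with H3K27ac upstream of its start in all 3 genotypes and no H3K27me3 peak in its window. In WT BMDM the H3K27ac peak spanned chr10:24927801-24931200, from 317 to 3716 bp upstream of the start, with 18 reads. This was as many as or more than in 75.2% of the peaks of that list. The WT peak also covered most of the noncoding gene Gm36172 (chr10:24927619-24930059, plus strand), so it cannot be given to Arg1 alone. In mdx BMDM the upstream peak was at chr10:24930401-24932000 with 7 reads, and a further peak with 7 reads lay over exon 5 of 8 at chr10:24916601-24917800. In mdxTLR4-/- BMDM the upstream peak was at chr10:24930201-24931800 with 8 reads. The WT peak thus reached closer to the gene start than the others, which stopped 2917 and 2717 bp short of it. At 7 and 8 reads, these peaks were at or below the median of their lists.

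The 3 upstream peaks had 800 bp in common, chr10:24930401-24931200, 2917 to 3716 bp upstream of Arg1 and beyond the far end of the noncoding gene Gm36172, which starts 135 bp from Arg1 and runs the opposite way. A set of 7 short motifs was searched on both strands of this stretch and of the central 800 bases of every region of at least that length that the 3 H3K27ac lists shared, 5538 in all. One match was found for C/EBP (TTGCNNAA), which 28.1% of the regions hold. There was also one match to the STAT6 palindrome, an inverted repeat of 3 bases with a spacer of 4, which 18.8% hold, and one to the letters TATAAA, which 24.4% hold. There was no match for kappa B (GGGANTTTC), GAS (TTCNNNGAA), the E-box (CACGTG) or AP-1 (TGANTCA), which 3.72%, 20.4%, 14.7% and 21.9% of the regions hold. Of this stretch, the 300 bases with the most matches are shown, chosen after the matches were found, in the direction of Arg1 transcription from RefSeq GRCm38.p6. The capitals are the STAT6 palindrome, 3545 bp upstream of the start, and the letters TATAAA, while the C/EBP match lies outside them, 3000 bp upstream.
Arg1 upstream, chr10:24930730-24931029, minus strand: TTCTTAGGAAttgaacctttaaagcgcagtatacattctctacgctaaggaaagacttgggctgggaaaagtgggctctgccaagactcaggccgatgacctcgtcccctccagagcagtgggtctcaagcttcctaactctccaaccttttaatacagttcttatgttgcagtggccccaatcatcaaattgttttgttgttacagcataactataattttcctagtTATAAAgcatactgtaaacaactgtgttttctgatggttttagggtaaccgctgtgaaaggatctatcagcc
A match to these letters is a description of the sequence and not of binding.

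**Figure D1:**
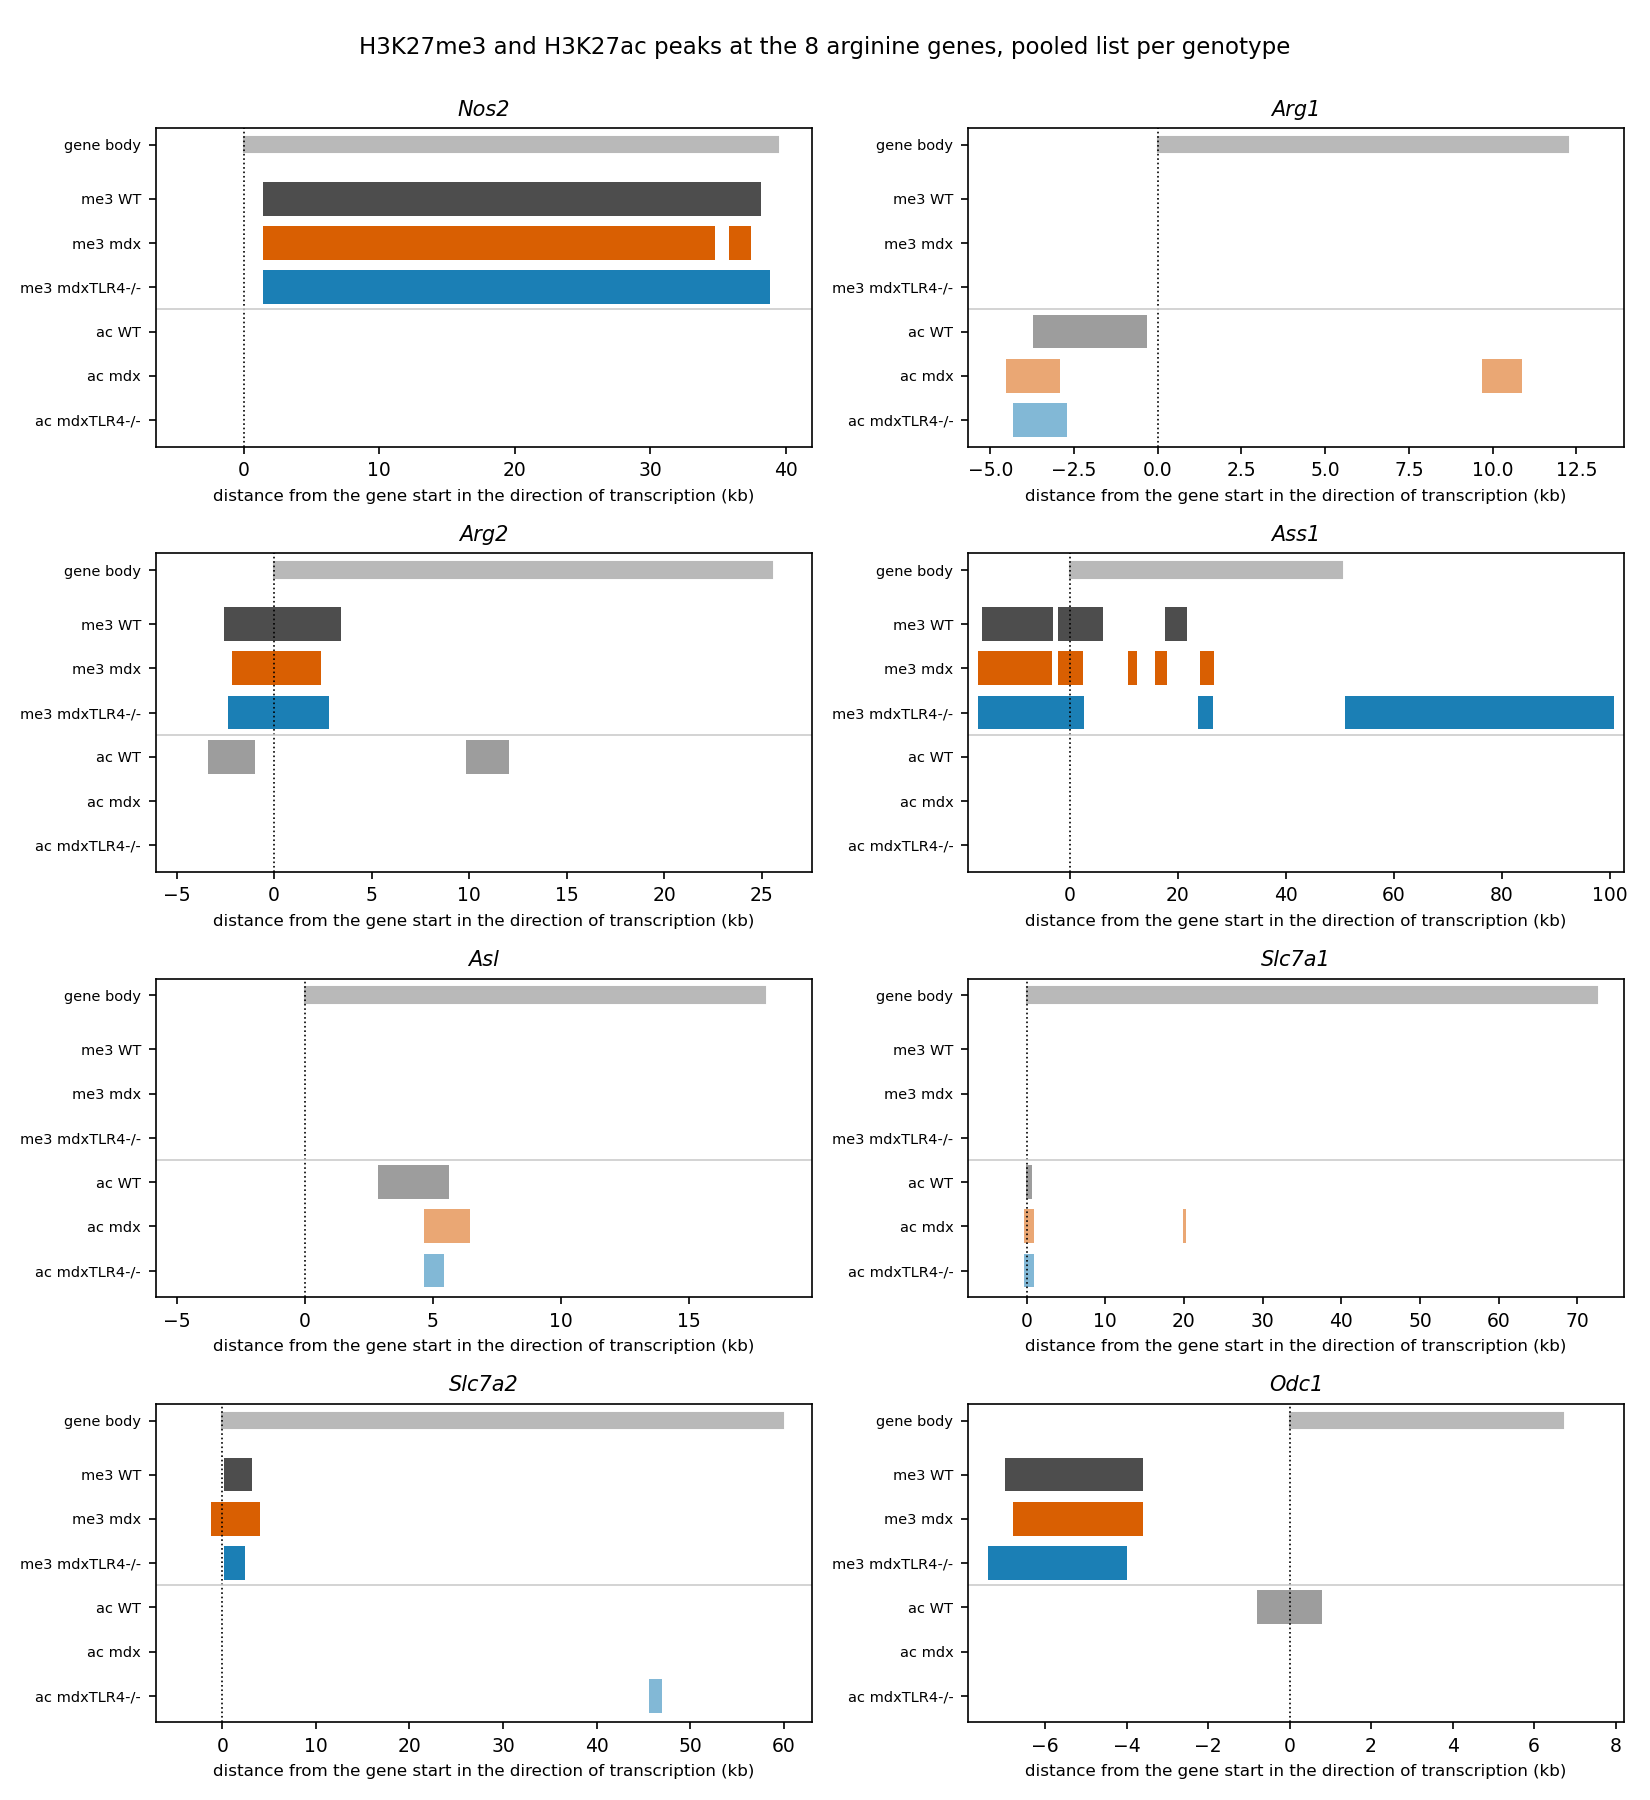
Peaks of both marks at the 8 genes, 1 panel per gene, with the distance from the gene start in the direction of transcription (kb) on the x axis and 1 row for each of the 6 pooled lists (dark, H3K27me3; pale, H3K27ac; grey bar, gene body; dotted line, gene start). Nos2 shows H3K27me3 from 1414 bp past its start in all 3 genotypes and no H3K27ac, Arg1 shows H3K27ac upstream and no H3K27me3, and the H3K27me3 peak past the end of Ass1 reaches its window in mdxTLR4-/- BMDM.

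Arg2, which encodes the mitochondrial arginase (ENSMUSG00000021125.6, chr12:79130777-79156301, plus strand), differed from Arg1 in that an H3K27me3 peak lay over its start in all 3 genotypes. It spanned chr12:79128201-79134200 with 254 reads (42.3 per kb) in WT, chr12:79128601-79133200 with 212 reads (46.1 per kb) in mdx, and chr12:79128401-79133600 with 186 reads (35.8 per kb) in mdxTLR4-/- BMDM. These peaks reached over exons 1 and 2 and covered 19.0%, 14.6% and 16.5% of the window. They had 17.0 to 20.7 CpG per kb, more than in 85.2% to 92.9% of the peaks of their lists. H3K27ac was listed at Arg2 in WT BMDM alone, in a peak at chr12:79127401-79129800 with 7 reads, which ended 977 bp before the gene start, and an intronic one at chr12:79140601-79142800 with 8 reads. The upstream H3K27ac peak and the H3K27me3 peak of WT BMDM shared 1600 bp, the single place where the marks overlapped at these 8 genes. When an equal number of peaks was taken from each H3K27ac list, the densest first, no WT peak was left at Arg2. The upstream and intronic peaks had 2.92 and 3.64 reads per kb, denser than 7.03% and 15.1% of the WT list. Both the WT call and this overlap thus rested on peaks of low read density. The 3′ end of Arg2 overlaps that of Vti1b on the other strand by 285 bp, and no peak of the Arg2 window reached that far.

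The pair of enzymes that rebuild arginine from citrulline carried opposite marks. Ass1, argininosuccinate synthase (ENSMUSG00000076441.9, chr2:31470207-31520672, plus strand), had H3K27me3 over its start in all 3 lists and no H3K27ac. In WT BMDM the window was touched by 3 peaks, chr2:31454001-31467200 with 595 reads, chr2:31468001-31476400 with 234 reads over exons 1 and 2, and chr2:31487801-31492000 with 80 reads over exon 7. In mdx BMDM there were 5 peaks, chr2:31453201-31467000 with 633 reads, chr2:31468001-31472600 with 190 reads over exon 1, and 3 intragenic ones of 40, 57 and 75 reads. The upstream peak also covered the end of Hmcn2, the neighbouring gene, in all 3 genotypes.
In mdxTLR4-/- BMDM the upstream peak and that over the start were joined into 1 at chr2:31453201-31472800 with 821 reads, and an intronic peak held 52 reads. The third peak of that list, chr2:31521201-31571000 with 2004 reads, began 529 bp past the gene end and reached only 472 bp into the window. The same stretch was under peaks for 97.2% of its length in WT BMDM (1 peak, 2190 reads) and 94.4% in mdx BMDM (2 peaks, 2492 reads), whose peaks began at 31522601 and 31523201, just outside the window. Coverage of the Ass1 window was 25.8% in WT BMDM, 22.7% in mdx and 19.2% in mdxTLR4-/- BMDM.

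Asl, argininosuccinate lyase (ENSMUSG00000025533.15, chr5:130011258-130029247, minus strand), had no H3K27me3 peak and 1 H3K27ac peak in each list. The peak was at chr5:130023601-130026400 with 24 reads in WT, chr5:130022801-130024600 with 16 reads in mdx, and chr5:130023801-130024600 with 6 reads in mdxTLR4-/- BMDM. It lay 2.85 kb or more inside the gene, away from the outermost start, which is 43 bp from the start of Crcp on the other strand. Of the 6 annotated starts of Asl it covered 4 in WT and 3 in each of the other lists. Those 3 starts, 4866 to 4947 bp downstream of the outermost one, were under H3K27ac in all 3 genotypes. The WT peak had as many reads as or more reads than 83.3% of its list, the mdx peak than 75.4% and the mdxTLR4-/- peak than 34.7%.

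The arginine transporters of the list also carried opposite marks. At Slc7a1, the constitutive cationic amino acid transporter (ENSMUSG00000041313.14, chr5:148327410-148399904, minus strand), H3K27ac lay over the gene start in all 3 lists and H3K27me3 was in none. The peak was at chr5:148399201-148400000 with 11 reads in WT, and at chr5:148399001-148400200 in the other genotypes, with 12 reads in mdx and 9 in mdxTLR4-/- BMDM. An intronic peak of 6 reads at chr5:148379601-148380000 was listed in mdx BMDM alone. At Slc7a2, the cytokine-inducible transporter (ENSMUSG00000031596.15, chr8:40862396-40922308, plus strand), an H3K27me3 peak lay at the start of the gene in all 3 lists. It held 103 reads at chr8:40862601-40865600 in WT, 168 reads at chr8:40861201-40866400 in mdx and 62 reads at chr8:40862601-40864800 in mdxTLR4-/- BMDM. The mdx peak covered the gene start and 3 of 5 annotated starts, whereas the other peaks began 205 bp past it and covered none. The noncoding gene Gm26584 lies on the other strand over the same stretch, so the peaks cannot be given to Slc7a2 alone. H3K27ac at Slc7a2 was a single peak of 5 reads over exon 7, the fewest the lists hold, in mdxTLR4-/- BMDM.

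Odc1, ornithine decarboxylase (ENSMUSG00000011179.8, chr12:17544794-17551505, plus strand), which makes putrescine from ornithine, had an H3K27ac peak over its start in WT BMDM alone, at chr12:17544001-17545600 with 7 reads. In that list 25.2% of peaks had 7 reads or fewer. Its H3K27me3 peaks stayed outside the gene body, 3594 bp or more upstream of the start, with 73 reads in WT BMDM, 99 in mdx and 88 in mdxTLR4-/- BMDM. Their density was 21.5, 30.9 and 25.9 reads per kb in the same order, and they had 8.75 to 9.71 CpG per kb.

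**Figure D2:**
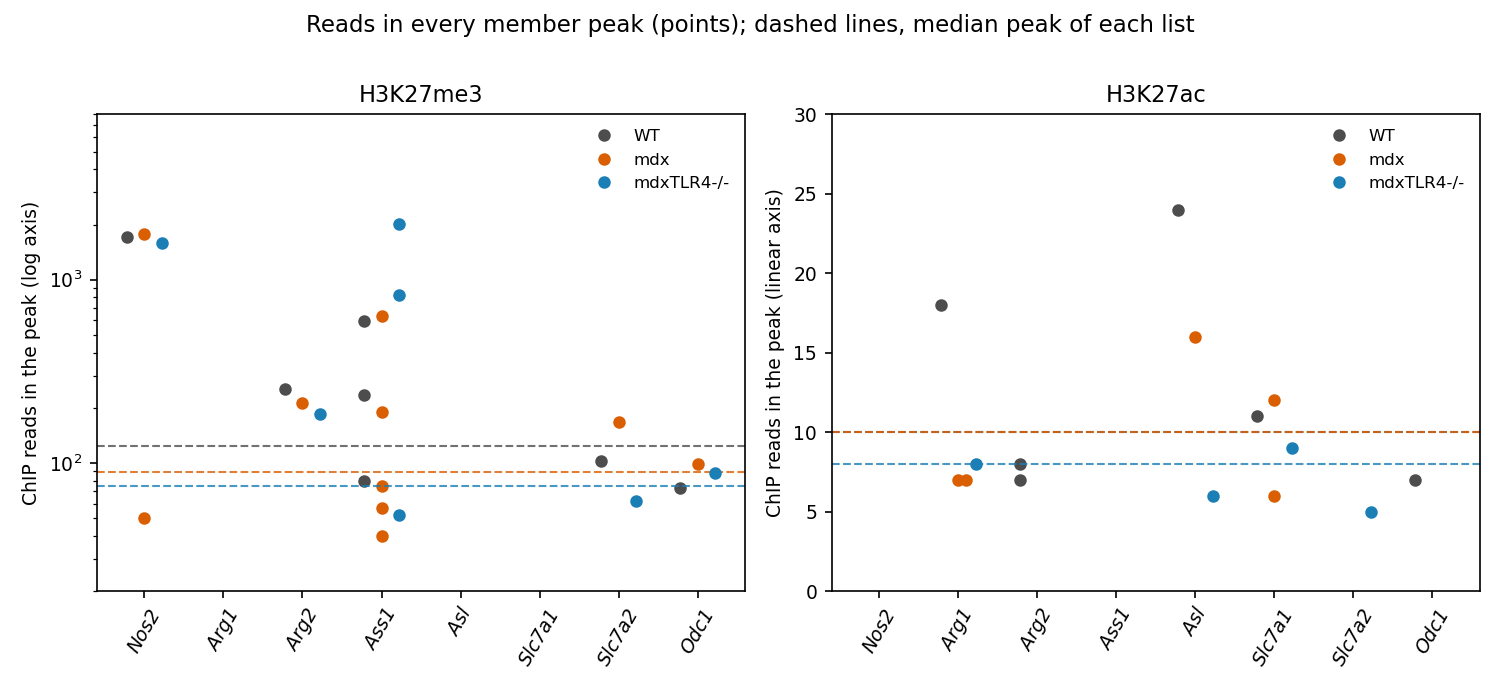
ChIP reads (y axis) in each peak that touched a gene window, by gene (x axis) and genotype (colour), for H3K27me3 on a log axis and H3K27ac on a linear axis; dashed lines are the median reads per peak of each list (WT and mdx coincide at 10 for H3K27ac). H3K27me3 peaks run from 40 to 2004 reads, and H3K27ac peaks from 5 to 24.

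Promoter sequences from RefSeq (GRCm38.p6, 250 bases before to 50 after the RefSeq start) were matched for 3 of the 8 genes, Ass1, Slc7a1 and Odc1. The RefSeq start lay 63 bp downstream of the gene start used above for Ass1 and 79 bp for Odc1, and was the same for Slc7a1. The other members had no promoter entry, so these 3 were set by availability and not chosen for their marks. Their starts carried different marks, while each promoter had more CpG over its 300 bases than most promoter entries. The first 150 bases of each follow, 5′ to 3′ on the strand of the gene, with CpG dinucleotides in capitals.
Ass1, chr2:31470020-31470319, plus strand: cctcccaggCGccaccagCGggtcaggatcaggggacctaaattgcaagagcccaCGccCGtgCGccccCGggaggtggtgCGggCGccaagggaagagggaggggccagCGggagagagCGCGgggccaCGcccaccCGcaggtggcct
Slc7a1, chr5:148399855-148400154, minus strand: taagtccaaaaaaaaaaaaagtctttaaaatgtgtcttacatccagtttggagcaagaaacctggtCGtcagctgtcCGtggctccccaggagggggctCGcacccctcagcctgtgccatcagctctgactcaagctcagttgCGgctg
Odc1, chr12:17544623-17544922, plus strand: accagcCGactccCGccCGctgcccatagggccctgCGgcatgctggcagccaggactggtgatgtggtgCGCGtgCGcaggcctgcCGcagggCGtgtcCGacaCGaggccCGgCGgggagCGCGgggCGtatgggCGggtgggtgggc
Over all 300 bases, the promoters of Ass1 and Slc7a1 had 27 CpG each and that of Odc1 had 42, against a median of 7 over 32851 promoter entries, more than in 84.5%, 84.5% and 97.0% of them. Most of the Slc7a1 CpG lie past the printed bases. The printed Slc7a1 bases are also outside the WT H3K27ac peak, which ends at chr5:148400000. The Ass1 promoter was under H3K27me3 and not H3K27ac in all 3 lists, that of Slc7a1 under H3K27ac, in WT BMDM in part, and not H3K27me3 in all 3, and that of Odc1 under H3K27ac in WT BMDM alone. The H3K27ac peaks at the Slc7a1 start had 83.3 to 109 CpG per kb and the WT peak at Odc1 88.1, against a list median of 15.0 to 16.8, whereas those at Arg1 had 10.6 to 14.2. An E-box (CACGTG, held by 7.15% of all promoters) was found in the Ass1 promoter, 36 bases before its RefSeq start and so past the gene start used above. An AP-1 match (TGANTCA, held by 7.81%) was found in that of Slc7a1, 123 bases before its start. None of the 7 motifs was found in that of Odc1. A second RefSeq entry of Slc7a1, 7089 bp downstream, had 7 CpG.

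Read density in the H3K27me3 peaks was compared between genotypes for the 5 genes with a peak in both lists. Each ratio has an exact Clopper-Pearson interval at the 95% level, which covers counting error only, and the reads are as deposited, without scaling for depth. Peaks were called separately in each list and differ in extent, as at Slc7a2 with 5200 bp in mdx and 3000 bp in WT BMDM, so a ratio compares the mean density of peaks and not the reads over 1 fixed region. At Nos2 the density was 46.7 reads per kb in WT and 52.3 in mdx BMDM, a ratio of 1.12 (interval 1.05 to 1.20), when the median ratio over 7996 genes was 1.20, and 27.1% of them had a lower ratio. Scaled to reads in peaks, to the 1st percentile of density or to the median of 17103 regions shared by all 3 lists, it became 0.915, 0.962 and 0.920, so that its direction rested on the scaling. In mdxTLR4-/- BMDM the Nos2 density was 42.4 reads per kb and the ratio to WT 0.909 (0.848 to 0.974), against a median of 0.975 over 7779 genes, and 1.03, 0.995 and 0.947 under the same scalings. Of genes with a peak in both lists, 6.72% were past 1.5-fold in mdx and 3.77% in mdxTLR4-/- BMDM, and 0 of the 5 members were past it in either.

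The other members spread around these values. Ass1 had a ratio of 1.14 (1.04 to 1.25) in mdx BMDM, below 1 under all 3 scalings. In mdxTLR4-/- BMDM it was 1.13 (1.05 to 1.22), or 1.11 (1.01 to 1.22) without the peak past the gene end. With that peak it was 1.28, 1.24 and 1.18 under the same scalings, and 85.6% of genes had a lower deposited ratio. The upstream peak, mostly outside the window and over the end of Hmcn2, held 595 of 909 WT reads and 633 of 995 mdx reads. The peak over the Ass1 start alone had 27.9 reads per kb in WT and 41.3 in mdx BMDM, as deposited. It held 234 reads over 8400 bp in WT and fewer, 190 over 4600 bp, in mdx BMDM, so these densities are of unlike stretches. In mdxTLR4-/- BMDM the upstream peak and that over the start were joined. Arg2 had ratios of 1.09 (0.903 to 1.31) in mdx and 0.845 (0.696 to 1.02) in mdxTLR4-/- BMDM. Those of Slc7a2 were 0.941 (0.732 to 1.21) and 0.821 (0.589 to 1.14) in the same order, and the intervals of both genes hold 1. The Arg2 ratio in mdx BMDM was also below 1 under the scalings, at 0.889, 0.935 and 0.894. That of Slc7a2 in mdx BMDM was 0.769 to 0.808 when scaled, and 5.24% of genes had a lower one. Odc1 had the highest ratio in mdx BMDM, 1.44 (1.05 to 1.98), above that of 90.6% of genes and above 1 under each scaling (1.18 to 1.24). Its ratio in mdxTLR4-/- BMDM was 1.21 (0.874 to 1.67), or 1.26 to 1.36 when scaled, and 91.4% of genes had a lower one. Since the mdx and mdxTLR4-/- ratios share the WT list, they are not independent of each other.

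**Figure D3:**
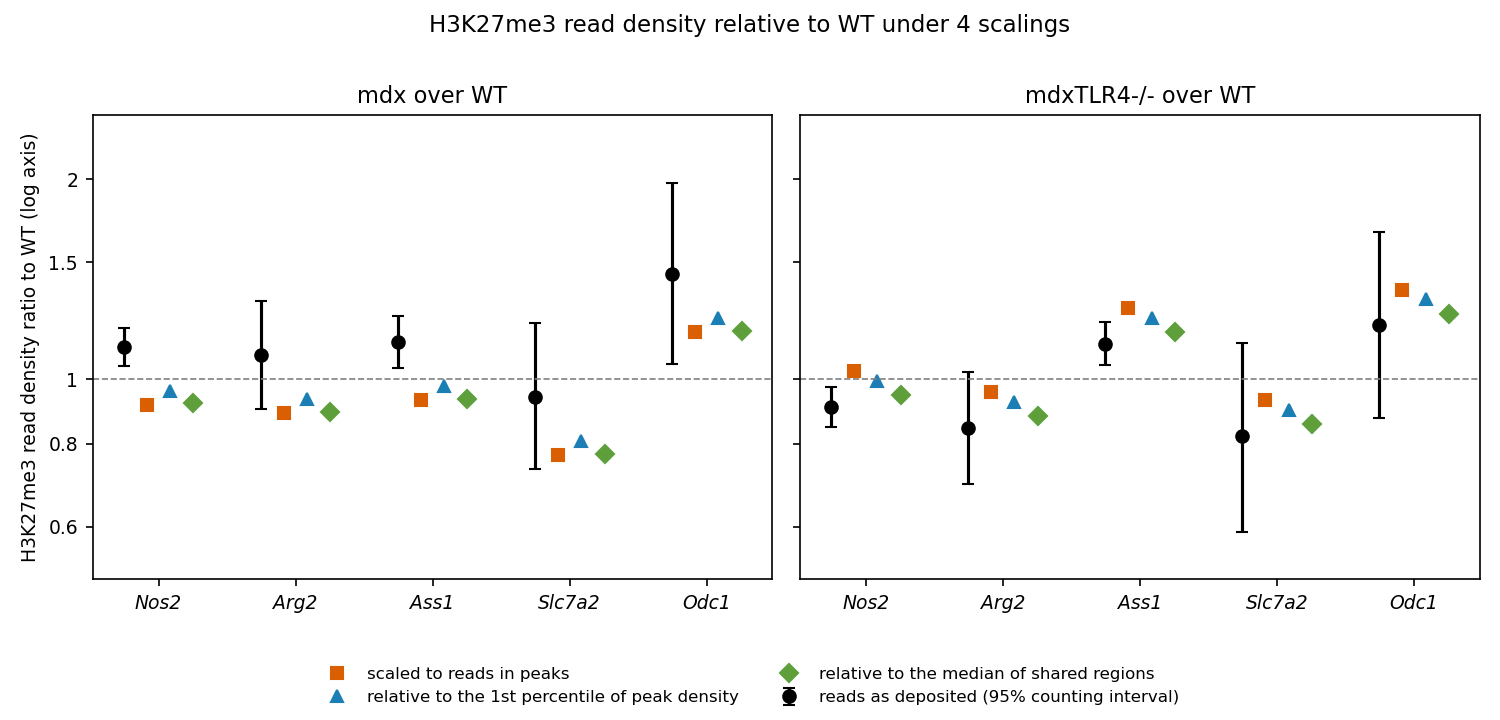
H3K27me3 read density relative to WT (log y axis) for the 5 genes with peaks in every list, in mdx (left) and mdxTLR4-/- (right) BMDM; black circles are reads as deposited with their 95% counting interval, and the other symbols are 3 scalings. Nos2, Ass1 and Arg2 are above 1 in mdx BMDM as deposited and below 1 under every scaling, while Odc1 stays above 1.

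For H3K27ac, 3 genes had peaks in both lists of each comparison, with intervals that all held 1. In mdx BMDM the ratios were 0.944 (0.435 to 2.01) at Arg1, 1.04 (0.515 to 2.03) at Asl and 0.818 (0.366 to 1.92) at Slc7a1. In mdxTLR4-/- BMDM they were 0.944 (0.355 to 2.28), 0.875 (0.293 to 2.20) and 0.545 (0.200 to 1.45). Of all genes compared, 38.4% were past 1.5-fold in mdx and 38.7% in mdxTLR4-/- BMDM, against 0 of 3 and 1 of 3 members, the one being Slc7a1. All these are reads as deposited. Scaled to reads in peaks, the ratios of Arg1, Asl and Slc7a1 became 1.35, 1.48 and 1.17 in mdx BMDM. In mdxTLR4-/- BMDM they became 1.54, 1.42 and 0.887. Relative to the median of shared regions they were 1.10, 1.21 and 0.955 in mdx, and 1.12, 1.04 and 0.649 in mdxTLR4-/- BMDM. Directions, and the gene past 1.5-fold, thus rested on the scaling. At these read counts a 1.5-fold difference was not detectable.

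Counted over the list, 5 of the 8 genes had an H3K27me3 peak in the window in each genotype, and they were the same 5: Nos2, Arg2, Ass1, Slc7a2 and Odc1. At a stricter read density, WT BMDM kept 4 of them, without Odc1, and the other genotypes 5. Without that stricter density, the share of all protein-coding genes was 38.4% in WT BMDM, 41.3% in mdx and 39.0% in mdxTLR4-/- BMDM. Of all genes with such a peak in any list, 78.1% had it in all lists, as 5 of 5 members did. With Increased (I) meaning at least 50% of the window under peaks and Unchanged (U) less, Nos2 was the 1 member designated I, in all 3 lists, against 16.6%, 16.3% and 14.9% of genes. A peak over the gene start was found for 2 members in WT BMDM, 3 in mdx and 2 in mdxTLR4-/- BMDM, the third being Slc7a2, against 23.5%, 23.8% and 22.7%. Median coverage of the windows was 7.81%, 9.48% and 5.63% over the members and 0 over all protein-coding genes. Mean coverage was 17.7%, 16.6% and 16.2% over the members and 17.6%, 17.4% and 16.0% over all protein-coding genes.

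An H3K27ac peak was in the window of 5 members in WT (Arg1, Arg2, Asl, Slc7a1 and Odc1), 3 in mdx (Arg1, Asl and Slc7a1) and 4 in mdxTLR4-/- BMDM (those 3 and Slc7a2), against 39.9%, 34.5% and 36.5% of genes. In all lists of those with any, the count was 3 of 6 members and 55.6% of genes. With I meaning at least 200 bp of the 5 kb upstream under H3K27ac, 3 members were designated I in WT (Arg1, Arg2 and Odc1) and 2 in each of the other genotypes (Arg1 and Slc7a1), against 26.0%, 21.9% and 22.2%. Slc7a1 was counted as U in WT since its peak there reached only 96 bp upstream. Within 1 kb of the gene start, H3K27ac was found for 4 members in WT (Arg1, Arg2, Slc7a1 and Odc1) and for Slc7a1 alone in mdx and mdxTLR4-/- BMDM, against 27.9%, 23.8% and 25.7% of genes. The calls at Arg1, Arg2 and Odc1 rested in WT BMDM on peaks of 18, 7 and 7 reads in the list with the most reads. With equal numbers of peaks per list, WT coverage of the Arg2 window fell from 14.6% to 0, while Arg1 at 18.6% and Odc1 at 12.6% stayed as they were. With at least 10 reads per peak, Arg2 and Odc1 were at 0 and Arg1 again at 18.6%. Both marks in the WT window were found for Arg2 and Odc1, and for 10.0% of genes.

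**Figure D4:**
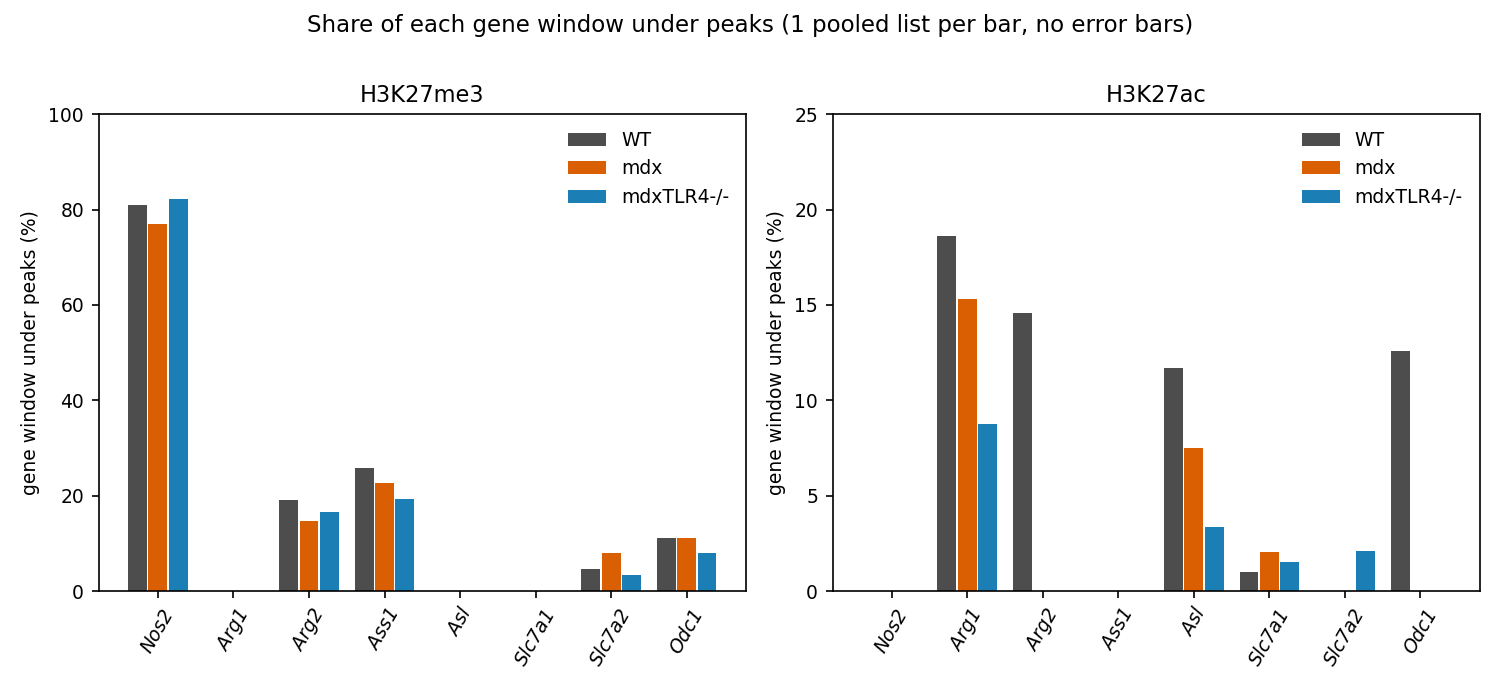
Share of each gene window under peaks (%, y axis) for H3K27me3 (left) and H3K27ac (right, with a shorter axis), by gene and genotype; each bar is 1 pooled list and there are no error bars. Nos2 stands at 77.0% to 82.3% for H3K27me3, no other member passes 25.8%, and Arg1 has the highest H3K27ac coverage of the 8 in every list.

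The rest of the pathway was read from a list of 37 further genes chosen for their roles in the making and use of arginine, nitric oxide, urea, creatine and polyamines. Of these, 16 had an H3K27me3 peak in the window in WT BMDM, 17 in mdx and 15 in mdxTLR4-/- BMDM, against 38.4%, 41.3% and 39.0% of all genes. An H3K27ac peak was in the window of 17, 13 and 14, against 39.9%, 34.5% and 36.5%. In any list 18 genes had H3K27me3 and 18 had H3K27ac, 14 and 11 of them in all 3 lists, against 78.1% and 55.6% of all genes with the mark in any list, and 7 had neither mark. The number designated I for H3K27me3 was 4, 4 and 2, against 16.6%, 16.3% and 14.9% of all genes.

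The other nitric oxide synthases resembled Nos2 in the kind of mark. Nos1, the neuronal enzyme, had 42.8% of its window under H3K27me3 in WT BMDM, 44.2% in mdx and 31.9% in mdxTLR4-/- BMDM, in 7 to 18 separate peaks. Nos3, the endothelial enzyme, had 67.0%, 73.3% and 35.0%, so that it was designated I in WT and mdx BMDM only, and its start was covered in mdx BMDM only. Neither had an H3K27ac peak in any list. The enzymes that make and recycle tetrahydrobiopterin, the cofactor of all 3 synthases, carried H3K27ac and in part H3K27me3 as well. Gch1, which catalyses its entry step, had H3K27ac within 1 kb of its start in all 3 lists with 38, 22 and 16 reads, and its upstream part passed 200 bp in WT BMDM only; an H3K27me3 peak touched 0.513% of its window in mdx BMDM. Pts was designated I for H3K27ac in WT and mdxTLR4-/- BMDM, with 10 and 15 reads. Its mdx peak of 9 reads covered the gene start but only 76 bp upstream, while the WT peak was not within 1 kb of the start. Qdpr was designated I in WT BMDM only, with 9 reads. A Qdpr peak of 8 reads also covered the start in mdxTLR4-/- BMDM, reaching 164 bp upstream, and mdx BMDM had none. H3K27me3 covered 10.1%, 16.4% and 9.16% of the Qdpr window and 7.29%, 19.3% and 1.66% of that of Spr, sepiapterin reductase, which was designated I for H3K27ac in all 3 lists.

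Among urea cycle and transport genes, Nags, whose product makes the activator of carbamoyl phosphate synthesis, had 92.0%, 91.1% and 87.1% of its window under H3K27me3. Slc7a9, a transporter subunit of kidney and gut, had 87.9%, 72.4% and 77.6%. Both were designated I in all 3 lists and had no H3K27ac. Slc3a2, the heavy chain partner of several amino acid transporters, instead had H3K27ac over 24.0%, 17.8% and 16.0% of its window. Around ornithine decarboxylase, the antizyme gene Oaz1 had H3K27ac over 32.4% of its window in WT and mdx BMDM and no peak in mdxTLR4-/- BMDM, the 2 WT peaks holding 24 reads. Azin2, an antizyme inhibitor, was designated I for H3K27me3 in mdx BMDM only, with 41.8%, 63.9% and 45.0% of its window covered. Of the polyamine genes, Amd1 was designated I for H3K27ac in WT and mdxTLR4-/- BMDM with 11 and 10 reads and had no peak in mdx BMDM, and Paox was so designated in WT BMDM only, although it had a peak in each list. Agmat, which splits agmatine, had H3K27me3 over 84.6% of its window in WT BMDM, 26.9% in mdx and 40.9% in mdxTLR4-/- BMDM. These genes were chosen as those designated I for H3K27me3 or with a designation that differed between lists, except Nos1, Slc3a2 and Spr, which were added after their values were seen.

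**Figure D5:**
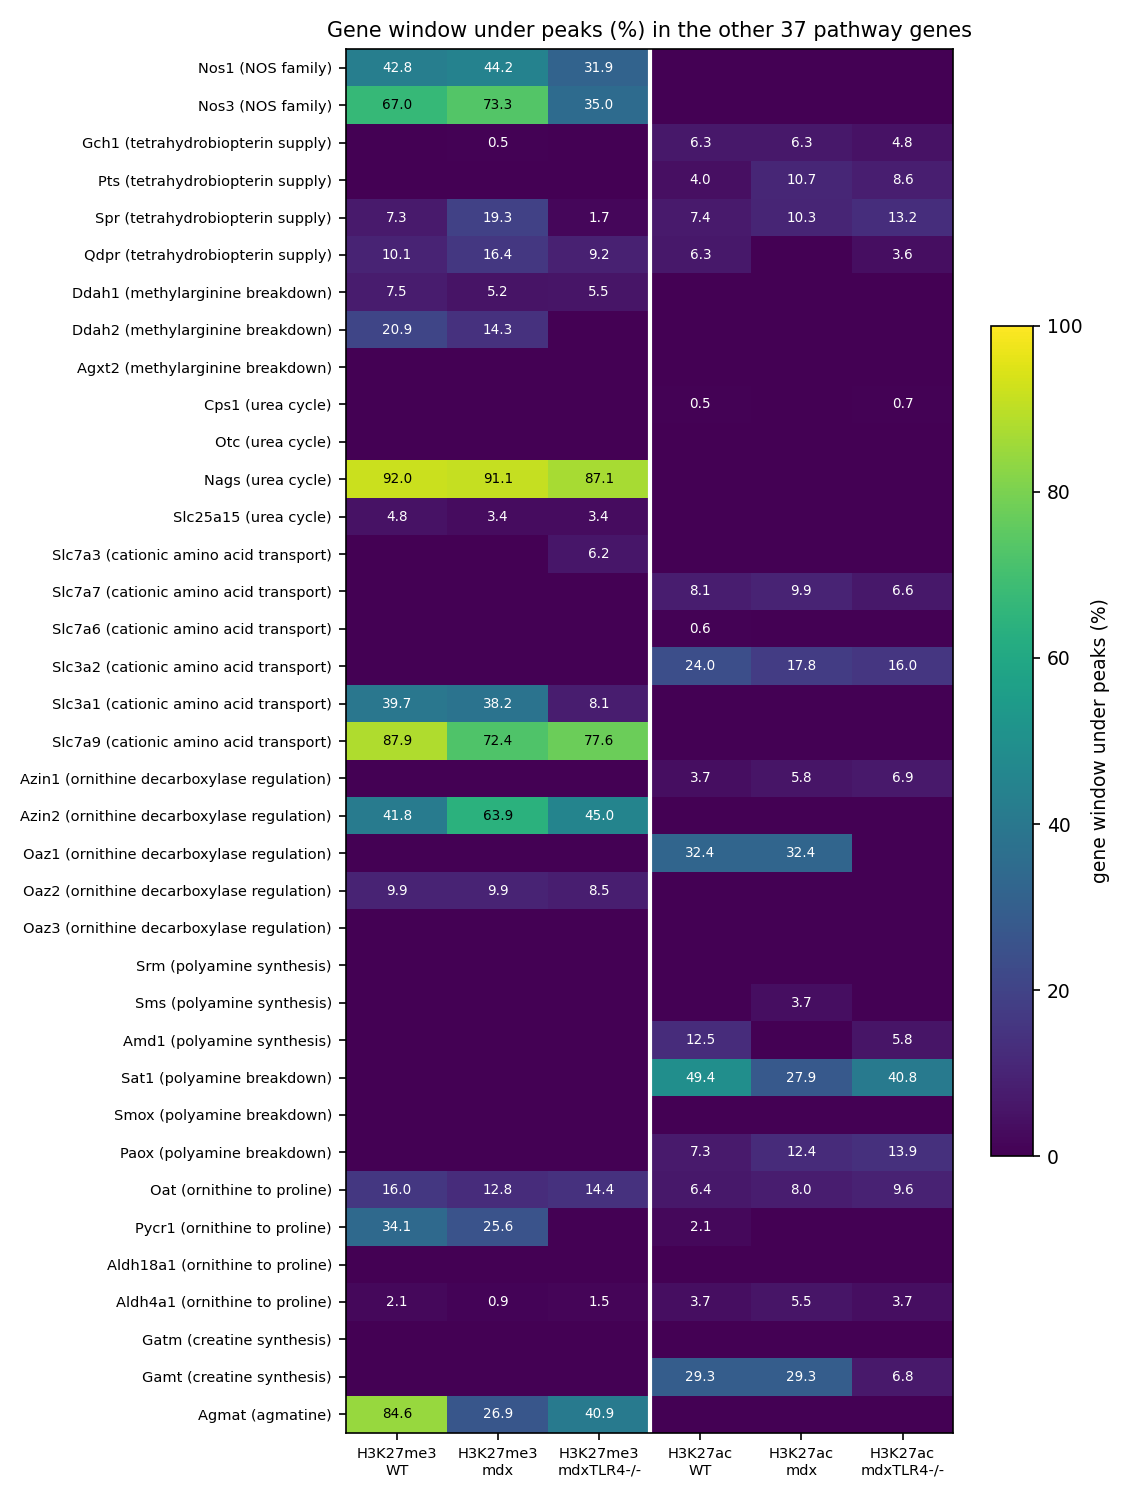
Share of the gene window under peaks (%, colour scale from 0 to 100, values printed where above 0) for 37 other genes of arginine metabolism (rows, role in brackets) in the 6 pooled lists (columns). Nags and Slc7a9 are the rows with H3K27me3 above 70% in every list, and Sat1 and Slc3a2 are among those with H3K27ac in every list.

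The genes most like each member were found by the Euclidean distance over the 6 window coverages in percentage points, a description over 6 pooled lists. For Nos2 they were Sema4f, Igfbpl1 and Myo1a at distances of 1.76, 1.86 and 2.00, and 34 genes lay within 5 points. For Arg1 they were Egln2, Pirb and Hnrnpf at 0.426 to 1.46, with 128 genes within 5 points. Arg2 had no gene within 5 points, the nearest being Wsb2, Zfp467 and Znhit3 at 5.84 to 6.45. Odc1 had 2, Vps36 and Atp5d, with Idh3b next at 5.01. For Ass1 the nearest were Acoxl, Acer2 and Insl3 (47 genes within 5 points), for Asl Zfp963, Cwc25 and Nudt4 (452), for Slc7a2 Sptbn1, Sfmbt2 and Cfap69 (361), and for Slc7a1, whose coverage was 2.04% or less in every list, Epsti1, Ubxn7 and Tnks (8393).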

How the data were processed

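ChIP-seq of unstimulated BMDM was deposited as 6 peak lists, 1 per mark and genotype. Per the paper's methods and the submitters' processing notes, the authors used CASAVA 1.8, cutadapt 1.15, Bowtie2 2.3.4 on mm10, merged the replicates (1 sample for H3K27ac of mdxTLR4-/-) and called peaks with SICER 2.0 (window 200 bp, gap 600 bp, FDR 0.01). The deposited value of each peak is a whole-number count of ChIP reads, not scaled for depth or length and without subtraction of input. A broad domain may be joined or split by 1 gap, and with 1 list per genotype no replicate can be left out.

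Lists were matched to GENCODE vM21 genes on the mm10 assembly, and coordinates are 1-based. Coverage, reads per kb of the whole peaks, and exact Clopper-Pearson intervals were computed with Python 3.11.15, numpy 2.4.6, scipy 1.17.1 and pandas 2.3.3, and tested on simulated peak lists. Intervals cover counting error only. Coverage of at least 50% of the window stood in for read intensity over input. Members, pathway genes, motifs and alternatives were chosen with earlier results of these data known. Genes named were all members, pathway genes with an I for H3K27me3 or a designation that differed between lists, genes under a member's H3K27me3 peak, and the 3 genes closest to each member; Nos1, Slc3a2, Spr and Sat1 were named after their values were seen.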

Additional observations from a re-analysis of the deposited data

How the results depend on the processing

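Of 84 recomputed counts of genes, 66 stayed within 1.5 times the value reported, as did 70 of 81 window coverages. Of the other 11, H3K27ac of Arg2 in WT BMDM went to 6.98% at a stricter read density and to 0 with equal numbers of peaks, and the rest to 0: H3K27me3 of Odc1 in WT and H3K27ac of Slc7a2 in mdxTLR4-/- BMDM at the stricter density, and, with at least 10 reads per peak, H3K27ac of Arg2 and Odc1 in WT, of Arg1 in mdx, and of Arg1, Asl, Slc7a1 and Slc7a2 in mdxTLR4-/- BMDM. Counting only peaks within 1 kb of the gene start left 3 members with H3K27me3 in each of WT, mdx and mdxTLR4-/- BMDM, 1 with H3K27ac in mdx and 1 in mdxTLR4-/-, and 6, 8 and 6 pathway genes with H3K27me3. The gene body alone gave 10, 11 and 9 pathway genes. At 20% of the window, 2 members in WT and 2 in mdx, and 9, 8 and 6 pathway genes, were Increased for H3K27me3. With at least 10 reads per peak, H3K27ac was left at 3 members in WT and 0 in mdxTLR4-/-. In the latter list 57.5% of all peaks had 9 reads or fewer. Shares of all protein-coding genes were given above for H3K27ac within 1 kb of the gene start. For the other settings here no such share is given, so these counts cannot be set against all genes. The mdx to WT density ratio of Nos2 turned to 0.915 scaled to reads in peaks, 0.962 relative to the 1st percentile and 0.920 relative to shared regions, and that of Ass1 to 0.930, 0.978 and 0.935. That of Arg2 turned to 0.889, 0.935 and 0.894. The mdxTLR4-/- ratio of Nos2 became 1.03 and 0.995 under the former pair of scalings. The Ass1 ratio without the peak past the gene end was added after seeing the data.

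No paired analysis was possible because each mark had 1 list per genotype, from merged replicates or, for H3K27ac of mdxTLR4-/-, from 1 sample, and for the same reason leaving out each replicate was not run. H3K27ac peaks of 5 to 24 reads limit every statement on that mark to large differences.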

Other observations

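Outside the gene windows, the peaks nearest to several member starts differed in distance between lists. For Arg1 the nearest H3K27me3 peak was 171.7 kb downstream in WT BMDM with 108 reads, 9.52 kb upstream in mdx BMDM with 41 reads, and 66.3 kb downstream in mdxTLR4-/- BMDM with 52 reads. For Slc7a1 it lay 7.70 to 11.1 kb upstream, and for Asl 38.0 to 40.2 kb upstream, in the 3 lists. For Arg2, the nearest H3K27ac of mdx and mdxTLR4-/- BMDM was 40.6 and 40.4 kb downstream, with 22 and 18 reads, over the start of Vti1b. For Odc1 it was 112 and 113 kb downstream with 17 and 20 reads. For Ass1, which had no H3K27ac in its window, it was 146 kb downstream in WT, 22.2 kb upstream in mdx and 218 kb downstream in mdxTLR4-/- BMDM, with 5, 6 and 26 reads.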
